A study of Rattus norvegicus with 9 samples.

Results

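Liver sinusoidal endothelial genes are those by which the lining cells of the hepatic capillaries are recognised. A set of 10 such genes were listed for this description: Lyve1, Gpr182, Stab1, Stab2, Kdr, Dnase1l3, Adgrf5, Tspan7, Flt4 and Erg. They were chosen on their levels in these samples, as genes that were mostly highest in 1 of the 3 groups, the fetal cells without the OC.2 antigen. A gene was included where the array annotation paired a probe set with its symbol alone, and its probe set with the highest mean was used. This gave 8 of the 10 genes, among 14497 genes measured in all. Stab1 and Stab2 were not analysed here.

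RNA came from liver cells of F344 rats and was hybridised to Affymetrix arrays of the Rat ST 1.0 type, 9 in all, with 1 preparation on each and 3 biological replicates per group. The adult group held hepatocytes of animals aged 5 to 6 weeks, released by perfusion and collagenase digestion in steps. Both fetal groups were taken at embryonic day 19, dissociated with collagenase and purified with antibodies to leucine aminopeptidase, a surface enzyme of hepatic cells, and to OC.2, an antigen of ductal cells. One fetal group was named positive for both antigens (OC.2+), and the other positive for the enzyme and negative for OC.2 (OC.2-). No transgene, drug or other treatment was named for any group. The isolation text describes the same selection for both fetal groups and the short descriptions of the OC.2+ samples call them LAP-OC2+, so the fetal groups rest on the titles and cell type labels.

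Sinusoidal endothelial cells form a fenestrated lining with little basement membrane, through which plasma reaches the hepatocytes. They clear hyaluronan, modified proteins and immune complexes from blood through scavenger and lectin receptors, and they depend on vascular endothelial growth factor (VEGF), which hepatocytes and other neighbours release. In the fetal liver the same vessels run among blood-forming cells, some of which share transcription factors and surface proteins with endothelium. All 3 groups carry hepatocyte names, so the genes described below are markers of a cell type other than the one named.

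Levels below are log2 of the deposited intensity. Differences are given on the log2 scale with their standard error (SE), and tests are 2-sided limma tests adjusted over all genes with Benjamini and Hochberg's method, with a gene called at adjusted p under 0.05. Median intensity over all rows was 79.5 to 81.0 on adult arrays and 86.5 to 89.7 on fetal arrays. The median SE of a log2 difference was 0.095, and the number of arrays limits the precision. The arrays give no detection call here, so folds of dim genes may be understated, and the level of one gene cannot be set against that of another. Hepatocyte markers were present in each group, with the 15 measured ones summing to 105842 to 114527 intensity units on adult arrays, 107999 to 117005 on OC.2- arrays and 43911 to 47984 on OC.2+ arrays.

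The promoters come first, because the genes share a pattern over the groups and this is the sequence next to their transcription starts. RefSeq windows of assembly GRCr8 were found for 8 of 8, and the 250 bases before each start were searched on both strands for 5 motifs. A pair were cores bound by ETS factors, the family of Erg: the motif spelled CGGAAG, which the family binds strongly, and its variant AGGAAG. The others were AGATAA for GATA factors, then ACAAAG for SOX factors, and finally GGGCGG for SP and KLF factors. The windows of Lyve1 (chr1:174410978-174411227, minus strand), Gpr182 (chr7:65474111-65474360, minus strand), Kdr (chr14:32571813-32572062, plus strand) and Erg (chr11:48251567-48251816, minus strand) are shown as the receptors the results turn on and the ETS factor, read 5′ to 3′ towards the start, with a match on either strand in capitals.
Lyve1: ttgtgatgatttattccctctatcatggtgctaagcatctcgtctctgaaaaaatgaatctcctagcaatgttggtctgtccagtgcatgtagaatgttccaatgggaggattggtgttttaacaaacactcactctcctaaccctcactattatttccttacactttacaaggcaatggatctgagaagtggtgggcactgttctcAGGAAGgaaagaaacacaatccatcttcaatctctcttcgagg
Gpr182: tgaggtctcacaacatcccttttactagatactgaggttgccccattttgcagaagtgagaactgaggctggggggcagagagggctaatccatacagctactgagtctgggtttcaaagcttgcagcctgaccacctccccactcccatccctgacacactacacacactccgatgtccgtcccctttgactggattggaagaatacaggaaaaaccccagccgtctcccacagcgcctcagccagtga
Kdr: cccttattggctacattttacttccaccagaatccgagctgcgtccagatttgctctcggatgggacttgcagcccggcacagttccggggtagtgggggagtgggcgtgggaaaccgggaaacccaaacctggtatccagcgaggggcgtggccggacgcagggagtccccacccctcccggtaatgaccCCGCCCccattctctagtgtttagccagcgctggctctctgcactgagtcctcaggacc
Erg: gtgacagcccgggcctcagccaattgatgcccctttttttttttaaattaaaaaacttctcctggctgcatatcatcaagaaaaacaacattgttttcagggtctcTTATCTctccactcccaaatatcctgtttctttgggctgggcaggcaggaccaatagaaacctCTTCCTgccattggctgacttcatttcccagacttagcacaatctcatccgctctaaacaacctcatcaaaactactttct

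AGGAAG was found in 3 of the 8 windows (Lyve1, Flt4 and Erg) and in 29.5% of the 33469 promoter windows of the table. GGGCGG was found in 3 of the 8 (Kdr, Tspan7 and Flt4) and in 30.5% of all windows. AGATAA was found in Erg alone (10.3% of all windows), and ACAAAG in Dnase1l3 alone (16.3%). CGGAAG was found in 0 of the 8 and in 13.9% of all windows. No 2 of these motifs overlapped in the windows shown. GC content of the windows was 41.6% for Lyve1 and 43.2% for Erg, against 73.6% for Tspan7 and 76% for Flt4, with a median of 51.2% over all windows. The genes that share a pattern over the groups thus had unlike promoter composition and held no motif of the 5 in common.

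The first genes encode receptors by which sinusoidal cells take up material from blood. Lyve1 encodes a hyaluronan receptor of sinusoidal and lymphatic endothelium. Its log2 intensity was 10.91, 10.57 and 10.80 on the OC.2- arrays, 7.86, 7.75 and 8.22 on the adult arrays and 7.51, 7.72 and 7.62 on the OC.2+ arrays. The OC.2- arrays stood above all others, and the adult and OC.2+ arrays lay close to each other without overlapping. Means were 10.76 ± 0.18 in OC.2- cells, 7.94 ± 0.25 in adult hepatocytes and 7.62 ± 0.11 in OC.2+ cells (SD, n = 3). The log2 level in OC.2+ cells was -3.14 ± 0.13 (SE) relative to OC.2- cells, and that in OC.2- cells was 2.82 ± 0.13 above adult hepatocytes.

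Gpr182 encodes an atypical receptor of endothelium that binds and removes chemokines. Its log2 intensity was 9.84, 9.19 and 9.59 on the OC.2- arrays, 6.78, 6.41 and 6.92 on the adult arrays and 5.66, 5.64 and 5.76 on the OC.2+ arrays. The 3 groups were separated, with adult hepatocytes between the fetal groups. The log2 difference between the fetal groups, -3.85 ± 0.16 in OC.2+ against OC.2- cells, was the largest in size of the 8 genes and corresponded to 14.5-fold. OC.2- cells exceeded adult hepatocytes by 2.84 ± 0.16.

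Kdr and Flt4 encode receptors of the VEGF family, the first the main receptor for VEGF-A on blood vessels and the second the receptor for VEGF-C and VEGF-D on lymphatic and fenestrated vessels. Kdr had a log2 intensity of 9.21, 8.80 and 8.84 on the OC.2- arrays, 7.15, 6.90 and 7.40 on the adult arrays and 6.03, 6.11 and 6.02 on the OC.2+ arrays. Its groups were separated in the same order as those of Gpr182. OC.2+ cells differed from OC.2- cells by -2.90 ± 0.13 and OC.2- cells from adult hepatocytes by 1.80 ± 0.13 on the log2 scale.

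Flt4 had a log2 intensity of 7.63, 7.05 and 7.14 on the OC.2- arrays, 6.42, 6.13 and 6.06 on the adult arrays and 6.23, 6.24 and 6.00 on the OC.2+ arrays. The OC.2- arrays were again highest, but the adult and OC.2+ arrays overlapped, and both lay below the median gene of their arrays. The log2 differences were smaller than those of Kdr, at -1.12 ± 0.14 for OC.2+ against OC.2- cells and 1.07 ± 0.14 for OC.2- cells against adult hepatocytes.

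Dnase1l3 encodes a secreted nuclease that degrades DNA in chromatin and microparticles. Its log2 intensity was 9.31, 8.96 and 9.14 on the OC.2- arrays, 7.63, 7.39 and 7.78 on the adult arrays and 6.46, 6.34 and 6.27 on the OC.2+ arrays. The groups did not overlap, and the adult mean lay 44.7% of the way from the OC.2+ to the OC.2- mean. OC.2+ cells differed from OC.2- cells by -2.78 ± 0.11, and OC.2- cells from adult hepatocytes by 1.54 ± 0.11 on the log2 scale.

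Adgrf5 and Tspan7 encode membrane proteins, an adhesion G protein-coupled receptor of endothelium and lung epithelium and a tetraspanin. Adgrf5 had a log2 intensity of 9.01, 8.55 and 8.67 on the OC.2- arrays, 6.94, 6.79 and 7.28 on the adult arrays and 5.67, 5.54 and 5.82 on the OC.2+ arrays. Tspan7 had 12.04, 11.83 and 11.81 on the OC.2- arrays, 9.68, 9.99 and 9.89 on the adult arrays and 8.88, 8.60 and 8.73 on the OC.2+ arrays. Both genes had separated groups with adult hepatocytes in between. The log2 difference of OC.2+ from OC.2- cells was -3.07 ± 0.14 for Adgrf5 and -3.16 ± 0.11 for Tspan7. That of OC.2- cells from adult hepatocytes was 1.74 ± 0.14 for Adgrf5 and 2.04 ± 0.11 for Tspan7.

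Erg encodes an ETS transcription factor of endothelial identity that is also active in blood stem cells and megakaryocytes. Its log2 intensity was 7.64, 7.32 and 7.42 on the OC.2- arrays, 6.02, 6.10 and 5.80 on the adult arrays and 7.09, 7.06 and 7.07 on the OC.2+ arrays. The OC.2- arrays were highest as for the other genes, but the OC.2+ arrays followed closely and the adult arrays were lowest. The OC.2+ level was -0.38 ± 0.10 relative to OC.2- cells, and the OC.2- level was 1.49 ± 0.10 above adult hepatocytes on the log2 scale.

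**Figure D1:**
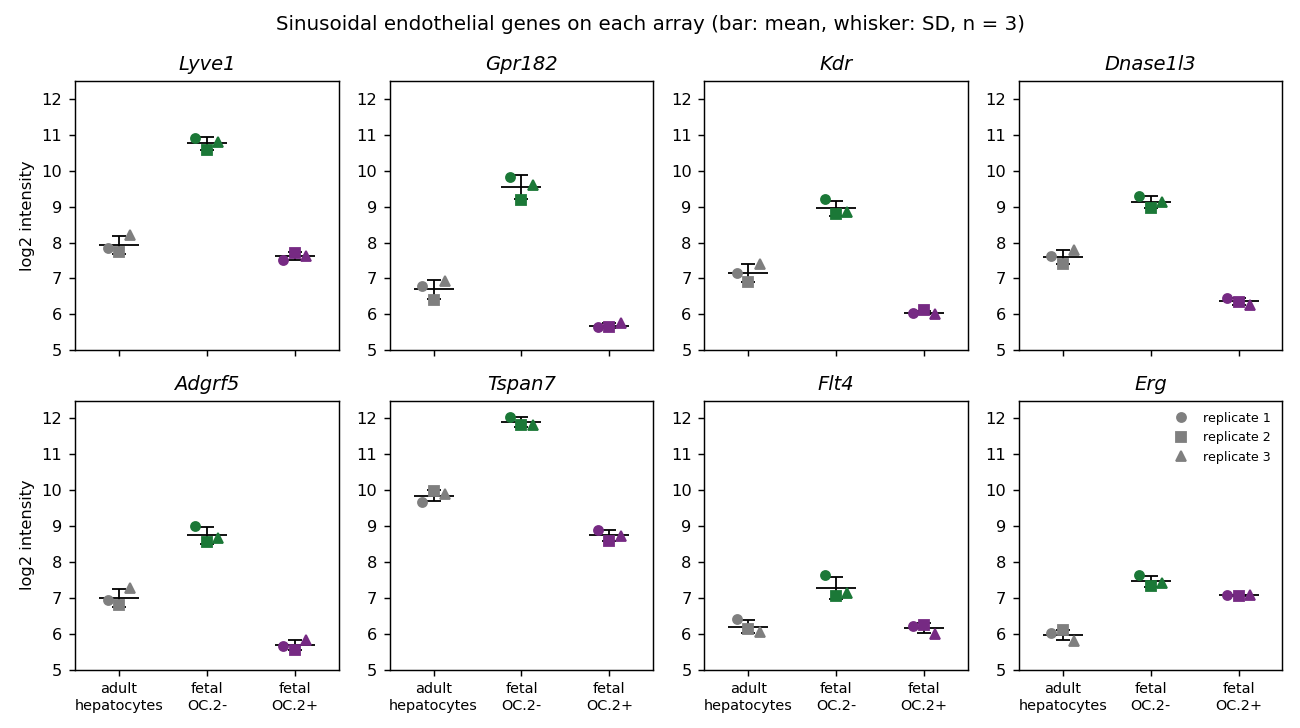
Log2 intensity (vertical axis) of the 8 measured sinusoidal endothelial genes on each of the 9 arrays, 1 panel per gene, with adult hepatocytes, OC.2- and OC.2+ fetal cells along the horizontal axis; points are arrays, bars are means and whiskers are SD (n = 3). The OC.2- arrays are highest in all 8 panels, and the OC.2+ arrays are lowest except for Erg, where adult arrays are lowest, and Flt4, where OC.2+ and adult arrays overlap.

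The OC.2- arrays lay above all 6 other arrays for 8 of 8 genes, which held for 6.89% of all genes, and since the genes were chosen for this pattern nothing is read from the count. For 6 of the 8 the order was OC.2-, adult, OC.2+ with no overlap at all (1.46% of all genes). The median log2 difference over the 8 genes was -2.98 for OC.2+ against OC.2- cells and 1.77 for OC.2- cells against adult hepatocytes, beside 0.04 and 0.07 over all genes. In these bulk samples a lower number of endothelial cells and less RNA per cell cannot be told apart.

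The genes also moved together between replicates. OC.2- replicate 1 was the highest of its group for 8 of 8 genes, with a median deviation of 0.22 from the group mean, and replicate 2 the lowest for 7 of 8 with -0.18. The median deviation of all genes on those arrays was 0.01 and 0.00. Summed over the 8 genes, intensity was 9207, 7356 and 7891 on OC.2- replicates 1, 2 and 3. Most other lists were highest on replicate 1 too. Among them were 26 general endothelial markers at 6416, 5140 and 5675 and 17 stellate and mesenchymal markers at 7868, 6616 and 6911. The same held for 12 macrophage markers at 3073, 2431 and 2335. It also held for 15 hepatocyte markers at 117005, 116417 and 107999 and 11 blood progenitor markers at 1915, 1595 and 1733. Others were highest on replicate 3, with 12592, 11660 and 14342 for 11 erythroid markers, 1003, 965 and 1065 for 14 granulocyte markers, 918, 902 and 982 for 7 megakaryocyte and platelet markers, 794, 826 and 922 for 8 biliary markers and 1458, 1269 and 1529 for 12 markers of large vessels. The part of these in the replicate differences was not tested. On the OC.2+ arrays the genes varied little, with SD between 0.02 and 0.14, against 0.13 to 0.33 on the OC.2- arrays and 0.15 to 0.26 on the adult arrays.

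The choice of genes did not fix the comparison of OC.2+ fetal cells with adult hepatocytes. That choice was made with earlier results of these data known, so the tests below are not independent of it. In this comparison 6 of the 8 genes were lower in OC.2+ cells, 1 was higher and 1 was not called. Of all genes, 23.4% were called lower and 32.0% higher. The median log2 difference over the 8 was -1.06, against 0.11 over all genes. Both comparisons with OC.2+ cells use the same 3 OC.2+ arrays.

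Adgrf5 fell most, 2.51-fold lower in OC.2+ cells (95% interval 2.03 to 3.1, adjusted p = 2.74e-06). Dnase1l3 was 2.37-fold lower (1.99 to 2.81, adjusted p = 6.62e-07), Tspan7 2.17-fold lower (1.85 to 2.54, adjusted p = 9.1e-07) and Kdr 2.14-fold lower (1.76 to 2.61, adjusted p = 8.66e-06). Gpr182 was 2.03-fold lower (1.6 to 2.56, adjusted p = 9.4e-05). For these 5 genes, and for Lyve1, every adult array lay above every OC.2+ array, as for 25.0% of all genes. For the 5, the calls held under the 17 alternative settings run.

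The remaining genes differed from this. Lyve1 was only 1.25-fold lower in OC.2+ cells (95% interval 1.04 to 1.52, adjusted p = 0.0423), and 6 of the 17 alternatives ended this call. Its log2 difference of -0.33 became -0.19 without adult replicate 3 (adjusted p = 0.19), -0.27 without OC.2+ replicate 1 (0.141) and -0.26 with quantile normalization (0.111). The adjusted p also passed 0.05 without adult replicate 1 (0.0541), OC.2+ replicate 3 (0.0931) or OC.2- replicate 3 (0.0529). Flt4 showed a log2 difference of -0.05 with a 95% interval of -0.36 to 0.27 (adjusted p = 0.793), and the adult and OC.2+ arrays overlapped. Erg was 2.15-fold higher in OC.2+ cells (95% interval 1.84 to 2.5, adjusted p = 6.43e-07), with all 3 OC.2+ arrays at 7.06 or above and all adult arrays at 6.10 or below.

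**Figure D2:**
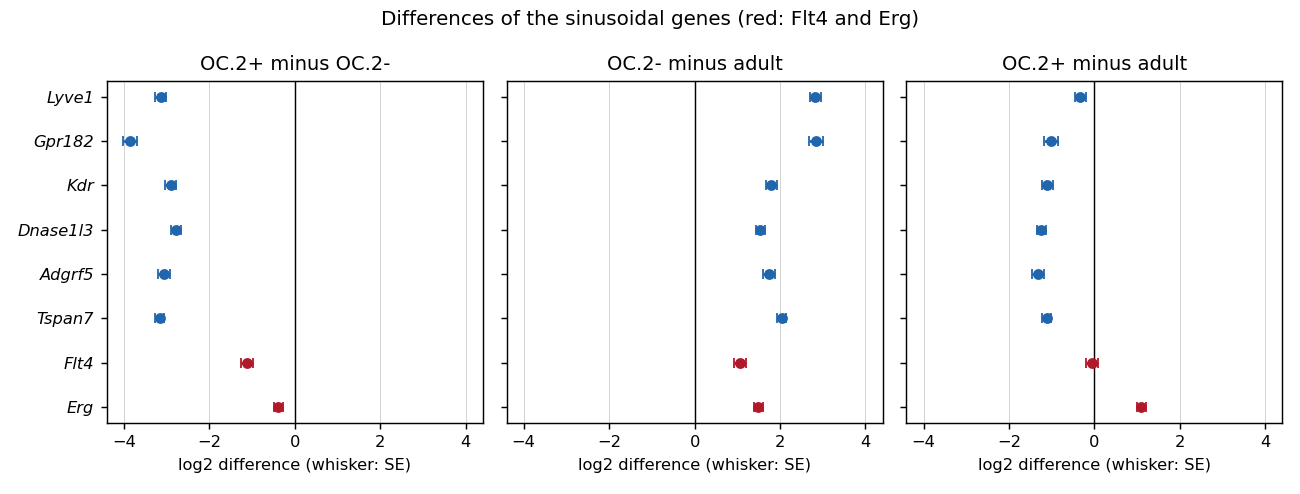
Log2 differences (horizontal axis, whiskers SE) of the 8 genes in the 3 comparisons, OC.2+ minus OC.2-, OC.2- minus adult and OC.2+ minus adult, with Flt4 and Erg in red. In the panel of OC.2+ minus adult, 6 genes lie below 0, Flt4 lies at -0.05 and Erg at 1.10.

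The genes could be ordered by how far each profile over the 9 arrays lay from the mean profile of the other 7, as a root mean square (RMS) log2 difference after each gene's own mean was subtracted. Kdr lay closest at 0.24, followed by Dnase1l3 at 0.29, Tspan7 at 0.34, Adgrf5 at 0.35 and Lyve1 at 0.44. Farther out were Gpr182 at 0.64, with larger differences, Flt4 at 0.69, with smaller ones, and Erg at 1.08, with a high OC.2+ level. By the same measure, Kdr, Dnase1l3 and Adgrf5 had each other as their 2 nearest genes among all 14497, at 0.13 to 0.16.

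Outside the list, the gene nearest to Lyve1 was Oit3, at an RMS difference of 0.10. Oit3 encodes a secreted zona pellucida domain protein known from liver and sinusoidal endothelium. Its mean log2 level was 9.91 ± 0.29 in OC.2- cells, 6.94 ± 0.25 in adult hepatocytes and 6.64 ± 0.03 in OC.2+ cells. Oit3 was also nearest to Gpr182 (0.32), followed by Acer2 (0.33), a ceramidase. The genes nearest to Tspan7 were Cldn1 (0.18), a tight junction protein, and Bmp2 (0.21), a growth factor made by sinusoidal cells. Flt4 was nearest to Fabp4 (0.10), a fatty acid binding protein of fat and capillary endothelium, and Arhgap31 (0.13). Erg was nearest to Tinagl1 (0.12) and Abcc3 (0.13), an organic anion transporter, and for both the OC.2+ level lay near the OC.2- level as well, at -0.38 ± 0.10 in Tinagl1 and -0.53 in Abcc3.

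The mean profile of the 8 genes had Plxnd1 (RMS difference 0.17), a semaphorin receptor of blood vessels, as its nearest gene. Plxnd1 differed by -2.19 ± 0.10 between OC.2+ and OC.2- cells and by 1.90 ± 0.10 between OC.2- cells and adult hepatocytes on the log2 scale. The next were Laptm4b (0.18), Lifr (0.24), the leukaemia inhibitory factor receptor, Prtfdc1 and Aldh1b1 (0.25 each), Rasgrp3 (0.27), and Bgn, Bmp2, Calcrl and Gpm6a (0.28 each). Bgn, a matrix proteoglycan, is on the list of stellate and mesenchymal markers and Gpm6a on that of mesothelial markers. A profile shared with the 8 genes was therefore not limited to endothelial markers.

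The other members of the VEGF system were examined beside Kdr and Flt4. Of these 8 genes, 5 fell and 3 were not called in OC.2+ against OC.2- cells, where 18.2% of all genes were called lower and 20.3% higher. Flt1, a VEGF-A receptor that also acts as a decoy, showed -1.93 ± 0.16 (adjusted p = 6.16e-07), and the co-receptor Nrp2 showed -0.69 (adjusted p = 0.000181). The co-receptor Nrp1 showed -0.30 and was not called (adjusted p = 0.0596). Among the ligands, Vegfa fell by 1.55 (adjusted p = 1.85e-07), Vegfb by 0.75 and Vegfd by 0.72, whereas Vegfc showed -0.13 (adjusted p = 0.207) and Pgf -0.12 (adjusted p = 0.456).

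Against adult hepatocytes the receptors were higher in OC.2- cells and the ligand Vegfa was lower. Flt1 was 1.64 ± 0.16 higher in OC.2- cells, Nrp1 1.27 higher and Nrp2 1.13 higher on the log2 scale, as Kdr and Flt4 had been. Vegfa showed -0.56 in the same comparison (adjusted p = 0.00156), and was lower still in OC.2+ cells against adult hepatocytes, at -2.11 (adjusted p = 3.72e-09). Over the 8 genes, 5 rose and 1 fell in OC.2- cells against adult hepatocytes, where 23.7% of all genes were called higher and 20.9% lower. In OC.2+ cells against adult hepatocytes 3 rose and 2 fell, where 32.0% of all genes were called higher and 23.4% lower. The shares over all genes in these 3 comparisons apply to the counts of the lists below as well. The OC.2- call of Pgf was lost under quantile normalization, median centring and cyclic loess. The OC.2+ call of Vegfd was lost under quantile normalization and cyclic loess. Quantile normalization, median centring and cyclic loess each lower the median fetal level relative to adult hepatocytes. With median centring or cyclic loess, the VEGF list including Kdr and Flt4 had 5 genes called lower in OC.2+ cells instead of 3.

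The angiopoietin receptors also had lower levels in OC.2+ cells. Tek, the receptor of angiopoietins, showed -1.76 ± 0.12 (adjusted p = 8.59e-08) and its partner Tie1 -1.22 ± 0.12 (adjusted p = 2.34e-06) in OC.2+ against OC.2- cells. The ligand Angpt1 rose by 0.51 (adjusted p = 0.000412), and Angpt2 and Angpt4 were not called, with 0.10 and 0.04. Tek and Tie1 were 1.69 and 1.60 higher in OC.2- cells than in adult hepatocytes. In OC.2+ cells against adult hepatocytes 2 of the 5 genes rose and 0 fell. Those that rose were Angpt1, by 0.82 (adjusted p = 3.84e-06), and Tie1, by 0.38 (adjusted p = 0.0162). The call of Tie1 was lost under quantile normalization, median centring and cyclic loess. Tek was level there, at -0.06 (adjusted p = 0.668).

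Calcrl and Ramp2, which together form the adrenomedullin receptor of endothelium, showed -2.27 ± 0.13 (adjusted p = 1.28e-08) and -2.04 ± 0.13 (adjusted p = 4.83e-08) in OC.2+ against OC.2- cells. Ackr3, another atypical chemokine receptor, showed -0.56 (adjusted p = 0.00658), a smaller log2 difference than the -3.85 of Gpr182. Of the 8 genes of this list other than Gpr182, 4 fell between the fetal groups. Relative to adult hepatocytes 5 of them rose in OC.2- cells and 3 were not called. The 5 became 4 with quantile normalization or cyclic loess and 3 with median centring. The call of Ackr2 was lost under all 3 of these scalings, and that of Ramp1 with median centring. In OC.2+ cells against adult hepatocytes Calcrl and Ramp2 were level, at 0.00 and 0.06, while 2 genes of the list rose, Ramp1 by 0.62 and Ackr2 by 0.29, the latter call lost under each of the 3 other scalings.

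Endothelial BMP signalling runs through Acvrl1, Bmpr2 and Eng to SMAD proteins and ID genes. Of 13 measured genes, 10 fell and 3 were not called in OC.2+ against OC.2- cells, with a median of -0.49. Eng, an auxiliary receptor of endothelium, showed -1.37 (adjusted p = 7.77e-07), Bmpr2 -1.32 (adjusted p = 1.68e-07) and Smad1 -1.29 (adjusted p = 1.81e-06). Unlike Eng, Bmpr2 and Smad1 had their highest means in adult hepatocytes, at 7.80 and 8.39, against 7.63 and 8.08 in OC.2- cells. Neither was called between those 2 groups. The ligand Gdf2 showed -0.34 and was not called (adjusted p = 0.0527). Against adult hepatocytes, 5 of the 13 rose and 2 fell in OC.2- cells (4 fell with median centring), and 1 rose and 7 fell in OC.2+ cells. The 1 that rose was Id1, at 0.25, and its call was lost under each of the 3 other scalings.

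The hyaluronan genes beside Lyve1 split. Cemip2, a cell surface hyaluronidase, showed -1.97 ± 0.08 (adjusted p = 1.04e-09) in OC.2+ against OC.2- cells, Hyal1, a lysosomal hyaluronidase, -1.28 (adjusted p = 8.91e-07) and Hyal2 -0.27 (adjusted p = 0.0147). Cd44, a hyaluronan receptor of blood and other cells, rose by 1.25 (adjusted p = 1.49e-07), Hmmr by 0.89 and Hyal3 by 0.38. These made 3 lower and 3 higher of the 11 genes other than Lyve1. Against adult hepatocytes 7 rose and 1 fell in OC.2- cells, and 5 rose and 2 fell in OC.2+ cells. The call of Has2 in OC.2+ cells was lost under each of the 3 other scalings. Hyal1 was the gene that fell in OC.2- cells, by 2.29 (adjusted p = 3.27e-09).

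Other nucleases were examined beside Dnase1l3. Of 6, 1 was called in OC.2+ against OC.2- cells, Dnase2b, with -0.43 (adjusted p = 0.0074). Of all genes, 18.2% were called lower and 20.3% higher there. In OC.2- cells against adult hepatocytes 2 fell, Dnase1l1 by 0.86 and Trex1 by 0.43, and with median centring 4 genes fell. In OC.2+ cells against adult hepatocytes, where Dnase1l3 was lower, 4 of the 6 others also fell and 0 rose. These were Dnase1l1 (-0.84), Dnase2b (-0.61), Endog (-0.58) and Trex1 (-0.46). Of all genes, 23.4% were called lower and 32.0% higher in that comparison. The adhesion receptors beside Adgrf5 had 3 lower and 1 higher of 14 between the fetal groups, beside the same 18.2% and 20.3% of all genes. The lower ones were Adgrl4, an endothelial receptor, with -1.58 ± 0.09 (adjusted p = 2.07e-08), Adgrl2 with -1.44 and Adgrg2 with -0.89, and the higher one was Adgre5, a leukocyte receptor, with 1.27. In OC.2- cells against adult hepatocytes 8 of the 14 rose and 2 fell. The call of Adgrb2, higher, was lost under each of the 3 other scalings, and that of Adgrl2, lower, with quantile normalization. In OC.2+ cells against adult hepatocytes 7 of the 14 rose and 3 fell. There the calls of Adgrb2, Adgrg2 and Adgrl3, all higher, were lost under each of the 3 other scalings. The 23 other tetraspanins had 9 lower and 8 higher between the fetal groups, from Tspan12 with -2.29 to Cd53, a tetraspanin of leukocytes, with 2.56. In OC.2- cells against adult hepatocytes 11 of the 23 rose and 4 fell. With median centring the calls of Tspan6, Tspan33 and Cd37 were lost. That of Tspan6 was also lost under cyclic loess and that of Cd37 with quantile normalization. Cd82, called lower at -0.22, showed 0.03 with quantile normalization. In OC.2+ cells against adult hepatocytes 11 of the 23 rose and 7 fell.

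Among transcription factors of endothelium, 12 of 24 other than Erg fell and 7 rose in OC.2+ against OC.2- cells. Fli1, the close relative of Erg, rose by 0.80 ± 0.10 (adjusted p = 3.54e-05), where Erg had shown -0.38 ± 0.10. Fli1 had a mean log2 level of 8.32 ± 0.23 in OC.2+ cells, 7.52 ± 0.06 in OC.2- cells and 6.36 ± 0.07 in adult hepatocytes. Ets1 showed -1.51 ± 0.14 (adjusted p = 1.41e-06) and Elk3 -1.07 (adjusted p = 1.91e-05), in the direction of the receptors above. Sox17 and Sox18, factors of vascular development, showed -0.76 and -0.62, and Gata4, a factor of sinusoidal specialisation that other liver cells also express, -1.84 (adjusted p = 3.04e-08). Tal1 and Lmo2, shared by endothelial and blood-forming cells, rose by 1.46 ± 0.12 and 0.95 and Gata2 by 0.98. Against adult hepatocytes 11 of the 24 rose and 5 fell in OC.2- cells, and 8 rose and 8 fell in OC.2+ cells. In OC.2- cells the calls of Klf4 and Hey1 were lost under each of the 3 other scalings. That of Klf2 was lost with quantile normalization and median centring. In OC.2+ cells the call of Klf2 was lost under each of the 3, and that of Elk3 with median centring.

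**Figure D3:**
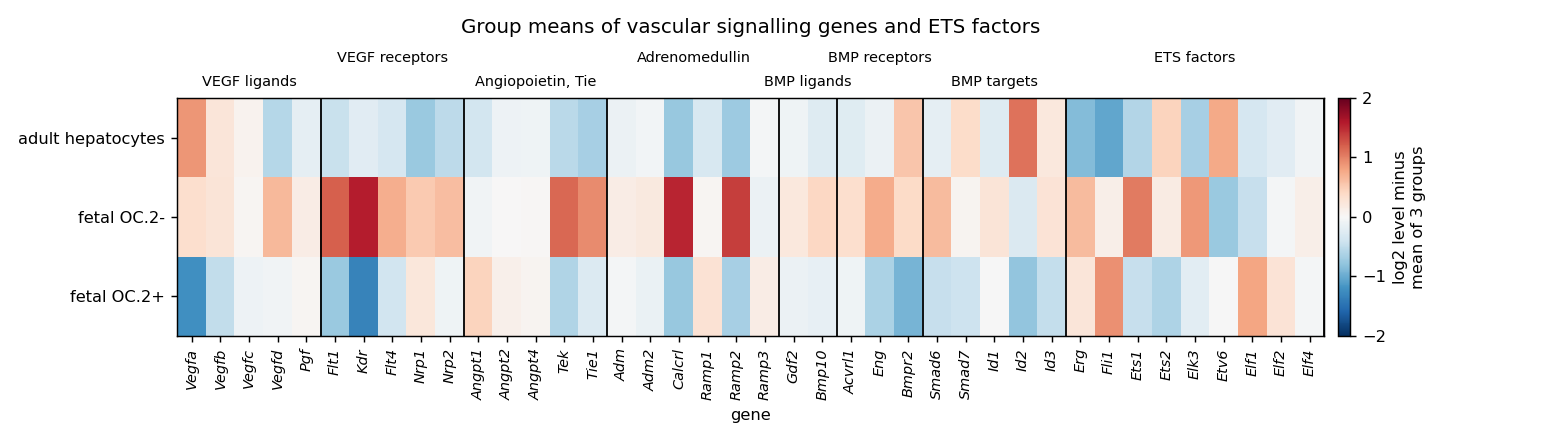
Mean log2 level of vascular signalling genes and ETS factors in each of the 3 groups (rows), shown in colour as the level minus the mean of the 3 groups, 1 column per gene. Tek, Calcrl and Ramp2 are highest in OC.2- cells, Fli1 is highest in OC.2+ cells, and Vegfa and Id2 are highest in adult hepatocytes.

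Further sinusoidal genes and general endothelial genes were counted beside the 8. These lists were also chosen with earlier results of these data known, so they are no independent check on the name. Lists also share genes, so their counts are not separate evidence. The general endothelial genes Tie1, Tek, Eng, Adgrl4 and Sox18 were counted in lists above too. Mrc1 and Cd36 are on the further sinusoidal and the scavenging lists, and Reln is on the lymphatic and the stellate lists. Of 20 further sinusoidal genes, 12 fell and 1 rose in OC.2+ against OC.2- cells, with a median of -0.77. The lowest were Oit3 at -3.27 ± 0.14 (adjusted p = 1.64e-09) and Ctsl, a lysosomal protease of many cell types, at -2.98 (adjusted p = 1.15e-09). The 1 that rose was Cd36, a scavenger receptor also carried by red-cell precursors and platelets, with 1.76 ± 0.15 (adjusted p = 4.98e-07). In OC.2- cells against adult hepatocytes 12 of the 20 rose and 1, Ctsl, fell, and the median was 0.94. The comparison of OC.2+ cells with adult hepatocytes had 7 higher and 6 lower, and a median of 0.01. Of all genes, 32.0% were called higher and 23.4% lower there. The 7 became 3 under each of the 3 other scalings and without OC.2+ replicate 2, and 4 without OC.2+ replicate 1 or 3 or adult replicate 1.

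Of 26 general endothelial genes, 20 fell and 3 rose in OC.2+ against OC.2- cells, with a median of -1.07. Emcn, a sialoglycoprotein of vein and capillary endothelium, showed -1.88 ± 0.14 (adjusted p = 1.35e-07) and Cdh5, the cadherin of endothelial junctions, -1.84 ± 0.13 (adjusted p = 1.44e-07). The 3 that rose, Podxl by 0.50, Cd34 by 0.36 and Icam2 by 0.24, are also found on blood progenitors or blood cells, and Icam2 was named after its value was seen. The call of Icam2 was lost under each of the 3 other scalings, and that of Cd34 under cyclic loess. In OC.2- cells against adult hepatocytes 23 of the 26 rose, with a median of 1.10, and 1 fell. This was S1pr1, the sphingosine 1-phosphate receptor, with -1.48 (adjusted p = 7.3e-09), also named after its value was seen.

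In OC.2+ cells against adult hepatocytes 7 of the 26 general endothelial genes rose and 3 fell (S1pr1, Eng and Adgrl4), with a median of 0.12 where the 8 genes had -1.06. Among those that rose, the calls of Tie1 and Rasip1 were lost under each of the 3 other scalings. Cdh5 showed -0.04 (adjusted p = 0.812) and Emcn -0.01 (adjusted p = 0.973), beside -1.10 for Kdr and -1.33 for Adgrf5. The difference between the lists was not tested. Markers of large vessels had 6 lower and 1 higher (Bmx) of 12 between the fetal groups, with Efnb2 at -1.54 and Dll4 at -1.15, and 8 of the 12 rose in OC.2- cells against adult hepatocytes (5 rose with quantile normalization and 4 with median centring). Of 6 lymphatic markers other than Lyve1 and Flt4, 4 fell between the fetal groups (Prox1, Reln, Nrp2 and Sox18) and 2 were not called. Prox1, a lymphatic factor that hepatocytes also express, had its highest mean in adult hepatocytes, at 9.05.

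Receptors of scavenging and endocytosis outside the list of 8 had 4 lower (Lrp1, Mrc1, Scarb2 and Scarf1) and 1 higher (Cd36) of 10 in OC.2+ against OC.2- cells. Mrc1, the mannose receptor of sinusoidal cells and macrophages, showed -1.30 ± 0.13 (adjusted p = 2.73e-06) and was 1.63 ± 0.13 higher in OC.2- cells than in adult hepatocytes. Lrp1, a broad clearance receptor of hepatocytes and macrophages, showed -1.35 (adjusted p = 1.21e-07) but fell by 1.53 in OC.2- cells against adult hepatocytes. In that comparison 5 of the 10 rose and 3 fell. The call of Colec12, higher, was lost under each of the 3 other scalings, and that of Scarb1, lower, with quantile normalization.

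Markers of other cells moved along the same comparisons. Between the fetal groups, 15 of 15 hepatocyte markers fell in OC.2+ cells with a median of -2.34, and 14 of 17 stellate and mesenchymal markers fell with a median of -0.70, led by Dcn at -3.37. The macrophage list had 3 of 12 lower (the complement genes C1qa, C1qb and C1qc) and 1 higher (Cd14). Blood cells went the other way: 11 of 11 erythroid markers rose with a median of 1.81, 13 of 14 granulocyte markers with 4.29, 6 of 7 megakaryocyte and platelet markers with 0.96 and 9 of 11 blood progenitor markers with 0.95. Among the last, Meis1 fell. Biliary markers had 1 higher (Muc1) and 2 lower (Onecut1 and Krt19) of 8, and mesothelial markers 2 lower (Gpm6a and Krt19) of 5.

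Relative to adult hepatocytes, the stellate and mesenchymal list rose in OC.2- cells in 15 of 17 genes, median 0.97, and the erythroid list in 11 of 11, median 2.12. The macrophage list had 7 of 12 higher and 3 lower, and the hepatocyte list 2 of 15 higher and 5 lower, a count of lower genes that was 12 under cyclic loess and 8 with median centring. Granulocyte markers rose in 7 of 14 genes, megakaryocyte and platelet markers in 5 of 7, blood progenitor markers in 6 of 11, biliary markers in 3 of 8 and mesothelial markers in 4 of 5. With quantile normalization or median centring the granulocyte count was 3 and the biliary count 1. In OC.2+ cells 14 of 15 hepatocyte markers fell, median -2.21, and 11 of 11 erythroid markers rose, median 4.13.

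Summed intensity shows how the lists ranged. The brightest genes weigh most in such sums. Among the 8 these were Tspan7 and Lyve1, with mean log2 levels of 11.90 and 10.76 in OC.2- cells. The 8 sinusoidal genes summed to 7356 to 9207 on OC.2- arrays, 1777 to 2034 on adult arrays and 1054 to 1119 on OC.2+ arrays. Stellate and mesenchymal markers summed to 6616 to 7868, 1835 to 2126 and 4507 to 5340 in the same order, macrophage markers to 2335 to 3073, 1785 to 1918 and 2045 to 2432, and granulocyte markers to 965 to 1065, 837 to 891 and 24936 to 28037. Vim, an intermediate filament gene that blood cells also express, made up 2159 to 2739, 129 to 170 and 2520 to 3210 units of the stellate and mesenchymal sum. Without it, a choice made after seeing the data, the other 16 genes summed to 4457 to 5129 on OC.2- arrays, 1706 to 1956 on adult arrays and 1986 to 2130 on OC.2+ arrays. Megakaryocyte and platelet markers summed to 902 to 982, 613 to 642 and 1949 to 2173, and blood progenitor markers to 1595 to 1915, 758 to 827 and 4545 to 5271. The array scale has no zero, so no marker can be called absent. The part of other cells in the levels of the 8 genes, Erg included, was not tested.

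**Figure D4:**
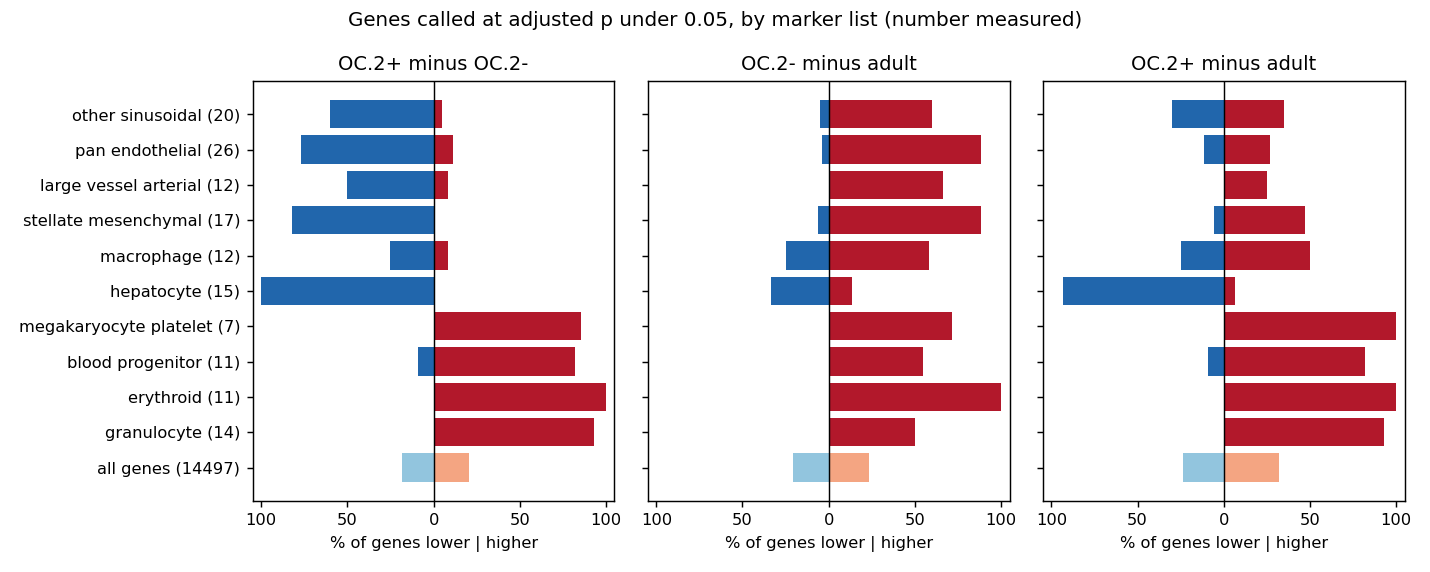
Percentage of the measured genes of each marker list called lower (left of 0) or higher (right of 0) at adjusted p under 0.05 in the 3 comparisons. In OC.2+ minus OC.2- the endothelial, stellate and hepatocyte lists extend to the left and the erythroid, granulocyte, megakaryocyte and blood progenitor lists to the right.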

How the data were processed

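Each array has 1 column of deposited intensities, on a linear scale. The submitters' processing notes name Partek 6.6 and RMA, with no role or order, and build and annotation were not given in the sources used here. RMA usually makes array distributions alike, which can hide a change shared by most genes. The deposited distributions still differed between adult and fetal arrays. The upper quartile of the log2 gene levels was 7.710 to 7.755 on adult arrays and 7.532 to 7.628 on fetal arrays. Of 28826 rows, 15209 had 1 gene symbol, 306 several and 13311 none, and a current rat gene table held 15178 of the single symbols. The highest-mean row was kept for each of 494 genes with several rows, and no member had more than 1.

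Log2 of the deposited intensities was fitted with limma 3.58.1 in R 4.3.3 (lmFit, then eBayes), on 9 arrays and 14497 genes together, with no filter on dim genes. P-values measure the spread between the preparations. A simulation of 14497 genes raised 200 in OC.2- cells by 0.5 or 1 log2 unit. For OC.2+ against OC.2- cells 63% and 96% were recovered and 2 unchanged genes were called. With adult hepatocytes as the other group 66% and 95% were recovered and 7 were called. The 200 were far fewer than the genes called in the real data, so these shares need not hold there. No change was simulated between OC.2+ cells and adult hepatocytes.

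The 10 genes and the lists of related genes and marker genes were chosen from textbook knowledge with earlier results of these data known. So no test is given for the 8 in the comparisons with OC.2- cells. All measured genes of the VEGF, angiopoietin, BMP, adrenomedullin and chemokine receptor, hyaluronan and nuclease lists and of the transcription factor list could be named. From each other list, up to 2 called genes each way with the largest difference between the fetal groups could be, as could the 10 genes nearest in profile to the mean of the 8 and the 2 nearest to each. Adgrg2, Scarb2, Scarf1, C1qa, Icam2 and S1pr1 and some others that complete a small count were named after their values were seen. Alternatives were quantile normalization, median centring, cyclic loess, genes with a mean under the median left out, the mean of a gene's rows, only the groups compared, a trended and robust variance, the replicate number as a block, and each array left out in turn.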

Additional observations from a re-analysis of the deposited data

How the results depend on the processing

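For the 8 genes, the direction of every log2 difference held under the 17 alternatives run (16 for Flt4, which was too dim for the filtered fit), except that Flt4 in OC.2+ cells against adult hepatocytes became 0.06 without adult replicate 1 and 0.03 without OC.2+ replicate 3 (range with 1 array left out -0.12 to 0.06). The number called lower in that comparison was 5 to 6 with 1 array left out. Tspan7 in OC.2- cells against adult hepatocytes ranged from 1.88 to 2.22. Scaling bears on comparisons with adult hepatocytes: median centring moved the median of all genes by -0.13 in both, and cyclic loess moved it by -0.14 in OC.2+ cells against adult hepatocytes. Quantile normalization moved it by -0.08 in OC.2- cells and -0.10 in OC.2+ cells against adult hepatocytes. Cyclic loess moved it by -0.08 in OC.2- cells against adult hepatocytes. Of all genes called in OC.2- cells against adult hepatocytes, 53.1% were higher (3431 genes). The share was 47.7% with quantile normalization (2872), 34.6% with median centring (2139) and 42.5% with cyclic loess. In OC.2+ cells against adult hepatocytes the shares were 57.8% (4643 genes), 50.2% with quantile normalization (3639), 42.5% with median centring (3024) and 42.2% with cyclic loess (3066). With dim genes left out, which tests fewer genes, 2043 and 2664 genes were higher in the same 2 comparisons. That filter also left 1 of 3 general endothelial genes higher and 11 of 20 lower between the fetal groups, 11 of 23 higher in OC.2- cells and 4 of 7 higher in OC.2+ cells against adult hepatocytes. Cyclic loess gave 1 in place of 3 higher between the fetal groups and 5 in place of 3 lower in OC.2+ cells against adult hepatocytes. With 1 array left out, 1 to 3 were higher between the fetal groups. Further sinusoidal genes called lower in OC.2- cells against adult hepatocytes numbered 2 in place of 1, and those called higher in OC.2+ cells 3 in place of 7, with quantile normalization, median centring or cyclic loess, and 3 to 8 with 1 array left out. Apart from scaling, fewer genes or fewer arrays, the cause of these moves was not tested. Of 1700 recomputed counts for the other lists, 114 were lower and 13 higher by over 1.5 times. Replicate numbers were checked for pairing, and 1 of 9 same-number pairs had a correlation of deviations over 0.1 (range -0.226 to 0.106), and the own number was best in 5 of 18 checks. With the replicate number as a block, 2843 genes were higher and 2573 lower between the fetal groups, and 6 of the 8 genes stayed lower in OC.2+ cells against adult hepatocytes.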
